A study of Mus musculus with 4 samples.

Results

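The 66 genes described here encode RNA-binding proteins of 3 families that take part in splicing and other steps of mRNA processing: 11 SR protein genes (Srsf), 20 hnRNP genes (Hnrnp) and 35 numbered RNA-binding motif genes (Rbm). They were chosen by a rule on names, set with earlier results of these data known. The rule took every gene with a row in the data whose Ensembl identifier maps to a protein-coding symbol with 1 of 3 beginnings. These were Srsf, Hnrnp, or Rbm and a number, with Rbm14 left out. The members are 66 of 20089 genes with a row. Total RNA was sequenced from HT22, an immortalised line derived from mouse hippocampal neurons (C57BL/6 per the labels). The 4 libraries came from HT22 cells with lentivirus targeted against Neat1 and deprived of oxygen and glucose (OGD), HT22 cells with the control negative lentivirus under OGD, HT22 cells with the Neat1 lentivirus in DMEM/F12 medium with serum (normal culture), and HT22 cells with the control negative lentivirus in normal culture. All 4 therefore carry a lentivirus, and the sources used here state neither the sequence it delivers nor the time since infection nor the length of deprivation. Each group is 1 library, so no difference below has a replicate check and no test was run.

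SR proteins carry an RNA recognition motif and a tail rich in arginine and serine, bind exonic enhancers and help the spliceosome choose splice sites, and kinases of the SRPK and CLK families control them by phosphorylation. The hnRNP proteins coat nascent transcripts, and several of them repress exons that SR proteins promote. Many genes of both families limit their own output through poison exons, which send the transcript to nonsense-mediated decay. The Rbm genes share an RNA recognition motif by name rather than one function, and range from spliceosome and exon junction components to the cold-inducible Rbm3. Neat1 is the long noncoding RNA scaffold of paraspeckles, nuclear bodies that hold several hnRNP proteins.

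The libraries held between 17232866 and 20764430 reads assigned to genes. Levels are CPM, counts scaled to library size and TMM factor, and ratios are log2 ratios of CPM with 0.5 CPM added, over genes that reached 20 in the larger of the 2 deposited scaled-count columns. Intervals are 95%, exact Poisson for a level and exact conditional binomial for a fold, and cover counting error only. Reads had no molecular identifiers. Neat1 itself stood at 42.1 CPM in knockdown cells and 74.4 CPM in control cells under OGD, and at 121 CPM in knockdown cells and 193 CPM in control cells in normal culture. Ndrg1, a gene induced by low oxygen, stood at 2331 and 2332 CPM in knockdown and control cells under OGD, against 68.8 and 46.1 CPM in knockdown and control cells in normal culture. The 10 neuronal marker genes were all detected in each library, with a summed level of 169 CPM in knockdown cells and 23.4 CPM in control cells under OGD, and of 10.3 CPM in knockdown cells and 1902 CPM in control cells in normal culture. Markers of oligodendrocytes (4 of 4 detected in each library) summed to 68.2, 8.91, 4.75 and 207 CPM in the same order, and those of astrocytes (between 2 and 4 of 4 detected) to 33.9, 5.46, 1.91 and 77.8 CPM, with Aqp4 and Gfap at 0 in control cells under OGD and Aldh1l1 at 0 in knockdown cells in normal culture. Markers of endothelium and blood were also highest in control cells in normal culture (27.6 and 30.7 CPM, against at most 7.96 and 3.83 CPM elsewhere), while those of microglia lay between 5.25 and 10.5 CPM. The neuronal tubulin gene Tubb3 stood at 21.4 and 54.0 CPM in knockdown and control cells under OGD, against 18.9 and 53.7 CPM in knockdown and control cells in normal culture. The library of control cells in normal culture thus stood apart, where 1642 genes exceeded every other library by 2-fold or more, and it is the reference of 2 of the 4 comparisons. Knockdown cells under OGD came next in the neuronal, oligodendrocyte and astrocyte sums, and that library is the numerator of the other comparisons. The part of the marker transcripts and of those 1642 genes in the ratios below was not tested. In a bulk library, fewer cells that express a gene and less RNA per cell cannot be told apart.

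Between genes, levels can be compared only per length, for which the deposited FPKM values were used. Rbm3, which encodes a cold-inducible RNA-binding protein, was the most abundant member in every library, at 1276 FPKM in knockdown cells and 1193 FPKM in control cells under OGD, and 1496 FPKM in knockdown cells and 1389 FPKM in control cells in normal culture. It made up between 58.0% and 65.1% of the summed FPKM of the Rbm family. Rbm17, a splicing factor gene, came next in that family in each library, between 138 and 203 FPKM. Srsf2, also known as SC35, led the SR genes in each library, with 251 and 243 FPKM in knockdown and control cells under OGD and 393 and 439 FPKM in knockdown and control cells in normal culture. Srsf9 came next in knockdown cells under OGD (80.8 FPKM) and in knockdown and control cells in normal culture (154 and 158 FPKM). In control cells under OGD Srsf1 came next, at 103 FPKM, and Srsf9 after it, at 89.3 FPKM. Among hnRNP genes Hnrnpk, a poly(C)-binding protein gene, was first in knockdown cells under OGD, at 386 FPKM, and Hnrnpa2b1 was first in the other 3 libraries, at 346 FPKM in control cells under OGD and 595 and 659 FPKM in knockdown and control cells in normal culture.

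The comparison of OGD with normal culture was made within knockdown cells and within control cells, which are separate pairs of libraries. Summed over the SR genes, the level was 1227 CPM under OGD and 1734 CPM in normal culture in knockdown cells, 1.41-fold lower (1.39 to 1.44). In control cells it was 1435 CPM under OGD and 1733 CPM in normal culture, 1.21-fold lower (1.19 to 1.23). The hnRNP genes summed to 4335 CPM under OGD and 5726 CPM in normal culture in knockdown cells, 1.32-fold lower (1.31 to 1.33), and to 4903 and 5877 CPM in control cells, 1.20-fold lower (1.19 to 1.21). As a share of all reads, SR genes took 0.126% and 0.128% in knockdown and control cells under OGD, against 0.179% and 0.183% in normal culture, lower under OGD without TMM scaling as well. The Rbm sum, of which Rbm3 held between 1280 and 1507 CPM, was 2709 CPM under OGD and 2816 CPM in normal culture in knockdown cells, 1.04-fold lower (1.03 to 1.05). In control cells it was 2797 CPM under OGD and 2542 CPM in normal culture, a log2 ratio of sums of 0.14 (1.09 to 1.11 as a fold). Without Rbm3 it was 1429 CPM under OGD and 1309 CPM in normal culture in knockdown cells, 1.09-fold higher (1.07 to 1.11), and 1421 and 1182 CPM in control cells, 1.20-fold higher (1.18 to 1.22). As a share of all reads the whole Rbm family was lower under OGD in both, at 0.278% against 0.291% in knockdown cells and 0.250% against 0.268% in control cells, so in control cells its direction turned with the scaling. Without Rbm3 the shares were 0.147% against 0.135% and 0.127% against 0.125%, still higher.

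Gene by gene, the medians over SR genes were -0.81 in knockdown cells and -0.34 in control cells, beside 0.0011 and -0.096 for all genes. The binomial intervals of these SR medians were wide, from -1.20 to 0.82 in knockdown cells and from -0.74 to 0.46 in control cells. Both intervals hold values of either sign and the all-gene median. They describe the spread between genes of a pair of libraries, which are not independent replicates. A decrease across the SR family was not tested. The medians of hnRNP genes were -0.18 and -0.20, and those of Rbm genes 0.0075 and 0.13. The families also spread differently. In knockdown cells 6 of 10 SR genes, 6 of 20 hnRNP genes and 8 of 32 Rbm genes were at least 1.5-fold lower, where 28.2% of all genes were, and 2, 1 and 7 were at least 1.5-fold higher, where 28.9% of all genes were. In control cells 4 of 10 SR genes, 5 of 20 hnRNP genes and 2 of 31 Rbm genes were at least 1.5-fold lower, where 31.5% of all genes were, and 1, 1 and 8 were higher, where 20.1% were. At the 2-fold rule, 5 of 62 members were higher and 10 lower in knockdown cells (19.1% and 16.8% of all genes), and 5 of 61 higher and 3 lower in control cells (9.62% and 21.4% of all genes). These shares are near or below the background of the whole table, and so are those of abundant genes: among genes that reached 1000 in the larger scaled-count column, 3 of 41 members were 2-fold higher and 5 lower in knockdown cells (13.5% and 11.6% of such genes), and 3 and 2 of 41 in control cells (12.9% and 8.76%). Scaling by total counts alone shifted the all-gene median by -0.23 in control cells, and 2 members were higher and 5 lower there. Higher genes then made up 19.4% of all genes past the 2-fold rule in control cells, against 31.0% with TMM.

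The SR genes divided into those below and those above their normal-culture level, and 9 of 10 had the same direction in both pairs of libraries, where 71.3% of all genes did. Srsf3, which encodes a small SR protein also active in mRNA export, stood at 113 CPM in knockdown cells and 132 CPM in control cells under OGD, against 261 and 227 CPM in knockdown and control cells in normal culture. Both OGD libraries were below both normal-culture libraries, by 2.30-fold in knockdown cells (2.19 to 2.42) and 1.72-fold in control cells (1.64 to 1.82). Its close relative Srsf7 stood at 75.4 and 82.7 CPM in knockdown and control cells under OGD, against 138 and 138 CPM in knockdown and control cells in normal culture. Srsf2 had 249 and 297 CPM in knockdown and control cells under OGD, against 419 and 467 CPM in knockdown and control cells in normal culture. It overlaps Mettl23 on the opposite strand, which held 565 and 552 reads in knockdown and control cells under OGD and 1087 and 1004 in normal culture, and the sources do not state whether counting used strand.

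Srsf1, the archetypal SR protein gene, and its relative Srsf9 were lower as well. Srsf1 stood at 115 CPM in knockdown cells and 182 CPM in control cells under OGD, against 265 and 252 CPM in knockdown and control cells in normal culture, with log2 ratios of -1.20 and -0.47. Srsf9 had 49.4 and 60.1 CPM in knockdown and control cells under OGD, against 98.4 and 96.7 CPM in knockdown and control cells in normal culture. Srsf3, Srsf7, Srsf2 and Srsf9 were at least 1.5-fold lower in both pairs, 4 of 10 SR genes, where 14.5% of all genes were. The count was 5 with total counts and 3 with the deposited size factors.

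Srsf4 (ENSMUSG00000028911, chromosome 4, 131873617 to 131901706 on GRCm38, plus strand), which encodes SRp75, went the other way. It stood at 154 CPM in knockdown cells and 152 CPM in control cells under OGD, against 55.0 and 67.0 CPM in knockdown and control cells in normal culture. That is 2.81-fold higher in knockdown cells (2.63 to 3.01) and 2.27-fold higher in control cells (2.13 to 2.44), and both OGD libraries lay above both normal-culture libraries. The gene overlaps the noncoding Gm12992 on the opposite strand, which was itself higher under OGD, with 810 and 677 reads in knockdown and control cells against 330 and 342 in normal culture. Its near relatives did not share the direction. Srsf6 had log2 ratios of -0.29 in knockdown cells and 0.096 in control cells, the second turning to -0.14 with total counts. Srsf5 had 73.8 CPM in knockdown cells and 121 CPM in control cells under OGD, against 142 and 140 CPM in knockdown and control cells in normal culture. Srsf11, a less typical SR protein gene, had 131 and 110 CPM in knockdown and control cells under OGD, against 74.5 and 79.97 CPM in normal culture. Srsf10, whose product represses splicing when dephosphorylated, had log2 ratios of 0.25 and 0.30.

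**Figure D1:**
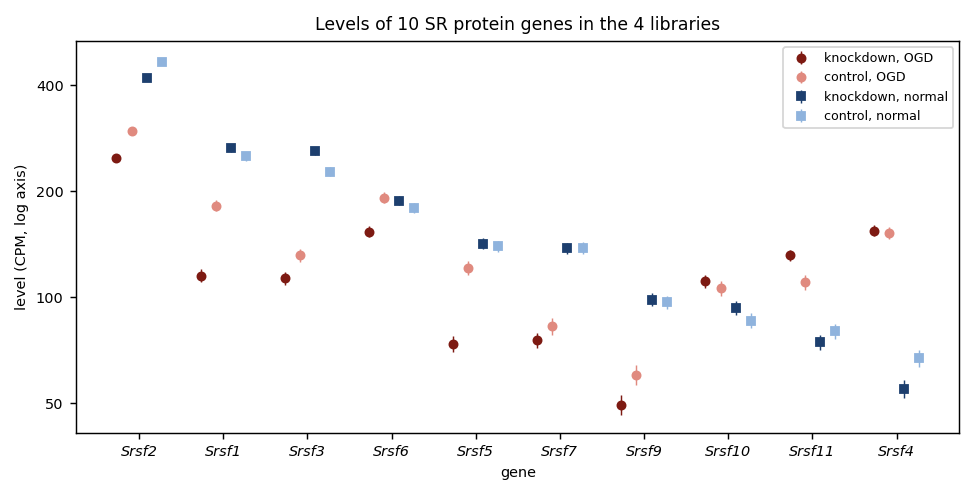
Points give the level (CPM, log axis) of each of 10 SR genes in the 4 libraries, circles for OGD and squares for normal culture, with 95% exact Poisson intervals. The circles lie below the squares for Srsf1, Srsf2, Srsf3, Srsf5, Srsf7 and Srsf9 and above them for Srsf4, Srsf10 and Srsf11.

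Among hnRNP genes on the lower side, Hnrnpa3, a member of the A/B group, had the lowest mean of both ratios, with Hnrnpab lower in knockdown cells and Hnrnpm in control cells (Hnrnpa3 is ENSMUSG00000059005, chromosome 2, 75659261 to 75669407, plus strand). It stood at 135 CPM in knockdown cells and 180 CPM in control cells under OGD, against 328 and 364 CPM in knockdown and control cells in normal culture. It was 2.44-fold lower in knockdown cells (2.33 to 2.55) and 2.02-fold lower in control cells (1.94 to 2.11), and was the single hnRNP gene past the 2-fold rule in both pairs. With the deposited size factors its control-cell value no longer passed. Hnrnpab, of the same wider group, had 359 and 567 CPM in knockdown and control cells under OGD, against 946 and 846 CPM in normal culture. Hnrnpa2b1, a carrier of transported mRNAs, had 392 and 474 CPM in knockdown and control cells under OGD, against 712 and 790 CPM in knockdown and control cells in normal culture. Hnrnpd, known as AUF1 and a binder of AU-rich elements, had log2 ratios of -0.98 in knockdown cells and -0.66 in control cells. The neighbouring gene Hnrnpdl, 54639 bases away on the same strand, had 0.25 and -0.18.

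Hnrnpm, a splicing repressor gene, had 132 and 123 CPM in knockdown and control cells under OGD, against 238 and 302 CPM in knockdown and control cells in normal culture, with log2 ratios of -0.85 and -1.29. It overlaps March2 on the same strand, which held 598 and 340 reads under OGD and 1347 and 1062 in normal culture, so shared reads cannot be told apart. Hnrnph2 had 65.1 CPM in knockdown cells and 40.9 CPM in control cells under OGD, against 73.6 and 75.6 CPM in knockdown and control cells in normal culture. The control OGD library alone was low, and passed the 2-fold rule with total counts. Hnrnpu, a nuclear scaffold protein gene, had ratios of -0.72 and -0.53.

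On the higher side Hnrnpul1, a protein related to Hnrnpu, had 247 and 251 CPM in knockdown and control cells under OGD, against 134 and 168 CPM in normal culture, with ratios of 0.87 and 0.58. Hnrnpll, a regulator of lymphocyte splicing, had ratios of 0.35 and 0.65, and Hnrnpul2 of 0.49 and 0.090. Hnrnpk had 0.32 and 0.29. Hnrnpr (0.39 in knockdown cells, -0.38 in control cells) and Hnrnpc (-0.37 and 0.38) lay on opposite sides in the pairs. Hnrnpa1, Hnrnpf, Hnrnpl, Hnrnph1 and Hnrnpa0 had ratios between -0.28 and 0.19 in both pairs. Thus, abundant hnRNP genes lay on either side: the 2 with the most CPM in normal culture, Hnrnpab and Hnrnpa2b1, were lower under OGD, and Hnrnpk, Hnrnpa1 and Hnrnpf stayed within 1.5-fold.

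The Rbm genes, 35 of the 66 members, held most of the members on the higher side. Of the 30 measured in all comparisons, 4 (13.3%) were at least 1.5-fold higher in both pairs, near the 13.5% of all genes. Rbm15, which encodes an adaptor of the m6A methyltransferase complex, stood at 29.2 CPM in knockdown cells and 28.2 CPM in control cells under OGD, against 13.1 and 6.83 CPM in knockdown and control cells in normal culture. It was 2.23-fold higher in knockdown cells (1.93 to 2.58) and 4.13-fold higher in control cells (3.39 to 5.05). The levels under OGD were alike, and those in normal culture differed by 1.92-fold between the lentiviruses. Its paralogue Rbm15b had ratios of 0.50 and 0.28. Rbm5, a regulator of Fas splicing, had 69.8 and 62.9 CPM in knockdown and control cells under OGD, against 31.1 and 27.3 CPM in normal culture, 2.25-fold (2.05 to 2.47) and 2.30-fold (2.07 to 2.56) higher. The adjacent Rbm6, 2563 bases away on the same strand, had ratios of 0.30 and 0.13. Rbm5, Srsf4 and Rbm15 were the members at least 2-fold higher in both pairs, 3 of 60, where 6.16% of all genes were, and 1 of 60, Hnrnpa3, was 2-fold lower in both, where 6.46% were. With total counts or FPKM only 1 member, Rbm15, was 2-fold higher in both. At 1.5-fold, 5 of 60 were higher and 9 lower in both, where 13.5% and 14.5% were.

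Rbm7, a subunit of the nuclear exosome targeting complex, had 77.2 and 51.4 CPM in knockdown and control cells under OGD, against 43.2 and 22.3 CPM in normal culture. Rbm33 had 84.6 and 66.6 CPM under OGD, against 29.7 and 37.4 CPM in knockdown and control cells in normal culture, with ratios of 1.495 and 0.83. Rbm18 had 48.4 CPM in knockdown cells and 28.9 CPM in control cells under OGD, against 17.97 and 19.4 CPM in normal culture. It overlaps Mrrf on the opposite strand, with 793 and 876 reads under OGD and 598 and 448 in normal culture. Rbm39, a splicing coactivator, had ratios of 0.99 and 0.57, and the spliceosome component Rbm22 of 0.57 and 0.98. Rbm38, a p53 target that binds Cdkn1a mRNA, had 81.7 and 95.9 CPM under OGD, against 67.8 CPM in knockdown cells and 35.5 CPM in control cells in normal culture. It passed the 2-fold rule in control cells (1.42), while its ratio in knockdown cells was 0.27.

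Members on the lower side of this family were found mainly in knockdown cells. Rbm12 stood at 4.60 CPM in knockdown cells and 8.45 CPM in control cells under OGD, against 22.0 and 14.1 CPM in knockdown and control cells in normal culture, with ratios of -2.14 and -0.70. Its annotated span overlaps Cpne1 on the same strand. Rbm4, an RNA-binding protein with roles in splicing and translation, had ratios of -1.43 and -0.12. It overlaps the protein-coding Gm21992 on the same strand, so shared reads cannot be told apart. Gm21992 held 84 and 162 reads in knockdown and control cells under OGD, and 284 and 276 in normal culture. The tandem pair Rbm12b1 and Rbm12b2 had -1.53 and -0.79 in knockdown cells and -0.056 and -0.16 in control cells, from between 29 and 125 reads. Rbm8a, the exon junction protein Y14, had 112 and 144 CPM in knockdown and control cells under OGD, against 228 and 191 CPM in normal culture. Rbm8a2, a near copy of Rbm8a inside Pld5, held 0 and 11 reads under OGD and 44 and 8 in normal culture, a level under OGD in knockdown cells at least 13.4-fold lower when the 0 is set to 3 reads, and at least 10.4-fold by the exact interval, which also covers error in the 44 reads. Reads may be split between the copies. Rbm47 likewise held 0 reads under OGD and 25 in normal culture in knockdown cells, at least 7.60-fold lower against 3 reads and 5.73-fold by the exact interval. The abundant Rbm3 was within 1.18-fold in both pairs, at ratios of -0.24 in knockdown cells and 0.017 in control cells, the second turning to -0.22 with total counts. Cirbp, the other cold-inducible RNA-binding protein gene, stood at 16.1 and 14.0 CPM in knockdown and control cells under OGD, against 26.4 and 41.5 CPM in normal culture.

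**Figure D2:**
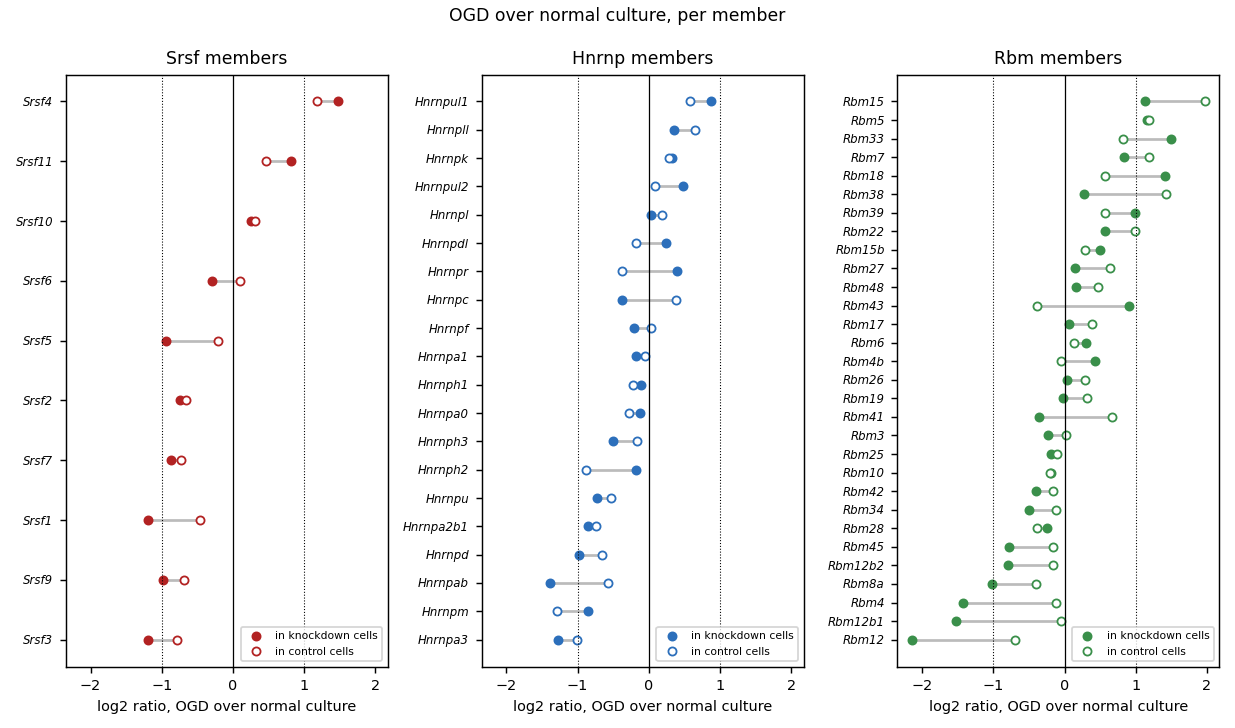
Each row is a gene that passed the floor in all 4 comparisons, with its log2 ratio of OGD over normal culture in knockdown cells (filled) and in control cells (open), by family and in order of the mean of both. Dotted lines mark 2-fold. Srsf4, Rbm5 and Rbm15 lie beyond 2-fold on the right with both symbols, and Hnrnpa3 on the left.

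Promoters are shown for the 4 members past 2-fold in the same direction in both pairs with TMM scaling. Direction alone was shared by 50 of 60 members, where it was by 71.3% of all genes. The set depends on scaling: total counts gave 1 member higher and 2 lower in both pairs, and the deposited size factors 3 and 0. Sequences are from RefSeq on GRCm38.p6, from 250 bases before to 50 after an annotated start, 5′ to 3′ on the gene's strand. Capitals mark ACGTG, the core of the hypoxia response element, searched on both strands (CACGT is its reverse complement, and the palindrome CACGTG holds both).
Srsf4, chr4:131873387-131873686, plus strand: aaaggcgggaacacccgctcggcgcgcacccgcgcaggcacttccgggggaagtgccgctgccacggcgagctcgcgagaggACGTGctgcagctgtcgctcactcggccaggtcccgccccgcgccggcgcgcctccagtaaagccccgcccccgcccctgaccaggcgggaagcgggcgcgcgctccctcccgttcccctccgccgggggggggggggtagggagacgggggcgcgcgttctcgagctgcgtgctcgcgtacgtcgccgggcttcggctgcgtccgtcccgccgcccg
Rbm15, chr3:107333240-107333539, minus strand: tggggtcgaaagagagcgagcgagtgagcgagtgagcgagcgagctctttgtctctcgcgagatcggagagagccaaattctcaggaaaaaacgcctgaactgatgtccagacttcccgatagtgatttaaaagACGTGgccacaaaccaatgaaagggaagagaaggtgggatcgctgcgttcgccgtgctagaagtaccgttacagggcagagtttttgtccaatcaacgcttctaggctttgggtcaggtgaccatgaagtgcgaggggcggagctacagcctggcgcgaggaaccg
Rbm5, chr9:107770953-107771252, minus strand: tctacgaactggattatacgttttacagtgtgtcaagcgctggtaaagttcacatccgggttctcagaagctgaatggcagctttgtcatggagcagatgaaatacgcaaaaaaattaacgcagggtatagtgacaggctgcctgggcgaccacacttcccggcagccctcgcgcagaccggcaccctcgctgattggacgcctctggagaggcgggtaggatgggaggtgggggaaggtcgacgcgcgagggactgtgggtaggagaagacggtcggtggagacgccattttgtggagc
Hnrnpa3, chr2:75659009-75659308, plus strand: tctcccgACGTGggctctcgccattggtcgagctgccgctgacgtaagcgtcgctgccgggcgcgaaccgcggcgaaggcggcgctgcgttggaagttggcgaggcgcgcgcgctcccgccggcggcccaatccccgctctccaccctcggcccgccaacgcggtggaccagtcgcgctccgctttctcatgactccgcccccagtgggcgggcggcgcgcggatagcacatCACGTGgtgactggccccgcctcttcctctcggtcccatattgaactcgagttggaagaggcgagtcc
The Srsf4 window shown is the first of 3 in the table. It and the Rbm15 window each hold 1 match, that of Rbm5 holds 0, and that of Hnrnpa3 holds 3 counted over both strands. Of 73 promoter windows found for 56 of the 66 members, 21 (28.8%) hold a match, against 19.6% of 32851 windows in the RefSeq table. By family, 3 of 14 Srsf windows, 11 of 27 Hnrnp windows and 7 of 32 Rbm windows do. Windows of 1 gene can overlap and count the same site more than once, as for Srsf4 and Hnrnpa2b1. The Srsf matches come from Srsf4 and Srsf6 alone, and the last Srsf4 window holds 0. A match is a description of letters only.

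Across the 60 genes measured in all comparisons, the OGD ratios in knockdown cells and in control cells had a Pearson r of 0.73 and a Spearman rho of 0.73 (r of 0.95 over 10 SR genes, 0.73 over 20 hnRNP genes and 0.67 over 30 Rbm genes). Genes within a library share its depth and scaling and are not independent replicates. Over 13024 genes r was 0.16 and rho 0.44. The direction was the same for 50 of 60 members, where it was for 71.3% of all genes. With a floor of 100 it was the same for 84.2% of 57 members and 75.6% of 10350 genes. Many members are abundant, and the part of level in these shares and correlations was not tested. The difference of the ratios, knockdown minus control, had medians of -0.22 for SR, -0.13 for hnRNP and -0.31 for Rbm genes, and was not tested. It was lowest for Rbm12b1 (-1.48), Rbm12 (-1.44) and Rbm4 (-1.30) and highest for Rbm43 (1.28). Of these differences Rbm43 rests on 277 and 74 reads in knockdown and control cells under OGD and 158 and 126 in normal culture.

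**Figure D3:**
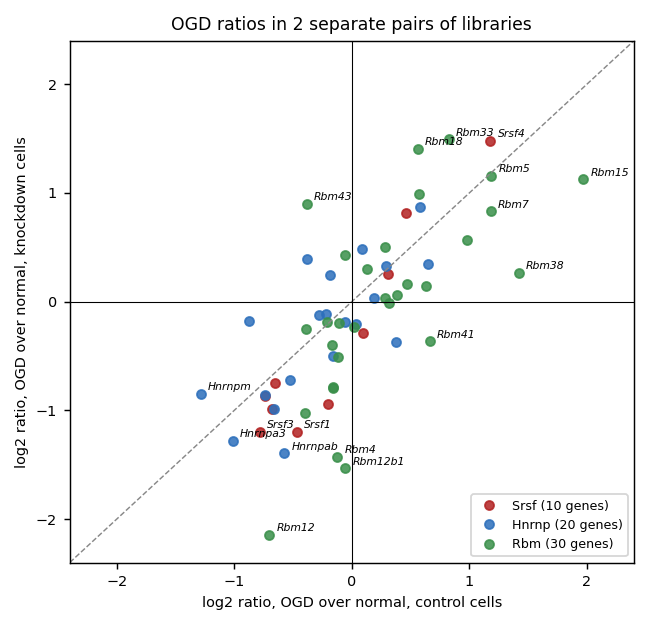
Each point is 1 of 60 genes, with its log2 ratio of OGD over normal culture in control cells (x axis) and knockdown cells (y axis). The dashed line marks equal ratios. Most points lie at the lower left or the upper right (50 of 60, where 71.3% of all genes do), with Rbm12, Rbm12b1, Rbm4, Rbm38 and Rbm43 far from the line.

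The rest of the splicing pathway was taken from 5 lists, chosen with earlier results of these data known. Of all genes, 19.1% were at least 2-fold higher under OGD and 16.8% lower in knockdown cells, and 9.62% and 21.4% in control cells. The median of 8 measured SR protein kinases was 0.81 in knockdown cells (0.0011 for all genes), with 3 at least 2-fold higher and 0 lower. In control cells it was 0.51 (-0.096 for all genes), with 1 higher, near the all-gene share, and 0 lower. Clk3, a CLK family kinase that phosphorylates SR proteins, had ratios of 1.53 in knockdown cells and 1.88 in control cells, and Clk4 and Clk1 passed the rule in knockdown cells (1.31 and 1.21). Prpf4b, a kinase of the spliceosome, had -0.53 and -0.72. SR-related proteins had medians of 0.43 in knockdown cells, with 3 higher and 1 lower of 20, and 0.28 in control cells, with 2 higher and 0 lower. Srek1 (1.73 and 1.07) was highest in both pairs, and Luc7l3 (-1.10 and -0.79) lowest in both. Acin1 (1.17) and Srrm2 (-0.97) came next in knockdown cells, and Thrap3 (1.06) and Son (-0.45) in control cells. The 29 spliceosome core genes had medians of -0.13 with 1 higher and 4 lower in knockdown cells and 0.087 with 2 higher and 0 lower in control cells. Prpf31 stood at -1.57 and -0.72, Snrpf at -1.41 and -0.87, Prpf6 at 1.05 and 1.04 and Prpf3 at 0.89 and 1.04. The 14 nonsense-mediated decay and exon junction genes had medians of 0.36 and 0.35, with 2 higher and 1 lower in each pair. The exon junction gene Magohb stood at -1.59 and -0.70, with Magoh at -0.59, Upf2 at 1.13 and Upf3a at 1.07 in knockdown cells and Upf3b at -1.11, Smg8 at 1.30 and Casc3 at 1.09 in control cells. Other hnRNP-type regulators had medians of 0.054 over 26 genes in knockdown cells, with 2 higher and 3 lower, and 0.16 over 25 in control cells, with 0 higher and 1 lower, which was Cirbp (-1.53). Khdrbs3 (2.26) and Celf2 (1.30) were highest and Pcbp4 (-1.42) and Syncrip (-1.09) lowest in knockdown cells, and Pcbp2 (0.95) and Celf2 (0.81) were highest in control cells.

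With the Neat1 lentivirus few members passed the 2-fold rule in either culture. In normal culture 1 of 63 was at least 2-fold higher and 1 lower, where 6.14% and 16.3% of all genes were. Under OGD 1 of 60 was higher and 1 lower, where 10.1% and 4.45% were. These 4 held at most 277 reads in any of the libraries compared. At 1.5-fold, 6 of 63 were higher and 5 lower in normal culture (13.3% and 23.1% of all genes), and 3 of 60 higher and 9 lower under OGD (18.1% and 12.4%). Many members are abundant, and of the 39 that reached 1000 in the larger scaled-count column in normal culture 0 passed the 2-fold rule, where 0.452% of 4204 such genes were higher and 5.26% lower. Under OGD 0 of 41 passed, where 0.461% and 2.04% of 3685 genes did. Medians in normal culture were 0.025 for SR, -0.059 for hnRNP and 0.20 for Rbm genes, beside -0.027 for all genes. Under OGD they were -0.24, -0.12 and -0.071, beside -0.012 for all genes. Scaling by total counts alone shifted the all-gene median there by 0.195, to 0.183, and the hnRNP and Rbm medians there were 0.078 and 0.13.

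SR genes past the floor in normal culture lay between -0.28 (Srsf4) and 0.20 (Srsf3), with Srsf2 (-0.16) and Srsf11 (-0.10) next to the lowest and Srsf10 (0.12) and Srsf1 (0.074) next to the highest. Their sum was 1734 CPM in knockdown cells and 1733 CPM in control cells, a ratio of 1.00 (0.986 to 1.02). Under OGD it was 1227 CPM in knockdown cells and 1435 CPM in control cells, 1.17-fold lower (1.15 to 1.19), but the share of all reads was 0.126% and 0.128%. The lowest were Srsf5 at -0.71 and Srsf1 at -0.66, both within 1.5-fold of control cells in normal culture, and the highest was Srsf11 at 0.25. Srsf6 (-0.32), Srsf10 (0.065) and Srsf4 (0.019) came next.

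Among hnRNP genes Hnrnpr, a relative of Syncrip found in neurons among other cells, was lowest in normal culture, at 46.2 CPM in knockdown cells and 85.9 CPM in control cells, 1.86-fold lower (1.72 to 2.01). Under OGD it was 60.7 CPM in knockdown cells and 65.8 CPM in control cells. Hnrnpul2 at -0.59 and Hnrnpm at -0.34 were next, and Hnrnpll (0.28), Hnrnpc (0.21) and Hnrnpd (0.17) were highest. Under OGD the lowest was Hnrnpab at -0.66, with 359 CPM in knockdown cells and 567 CPM in control cells, which is also the 1 member that the authors' deposited table marks as changed (down) in that comparison. Hnrnpc, a component of the core hnRNP particle, had -0.54 and Hnrnpa3 -0.42. Hnrnph2 was highest, at 0.66, before Hnrnpdl (0.18) and Hnrnpm (0.095).

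Rbm genes were the widest. In normal culture Rbm24, a splicing regulator of muscle, held 1 read in knockdown cells and 122 in control cells, a ratio of 0.0075 of the control level (0.00019 to 0.042). Under OGD it held 17 reads in knockdown cells and 0 in control cells, so in control cells it was at least 31.9-fold lower under OGD than in normal culture against 3 reads, and at least 25.6-fold by the exact interval. These 4 counts order the libraries as the neuronal markers do in part: the control library in normal culture is highest and knockdown cells under OGD come next. The authors' deposited tables mark it as down in knockdown over control cells in normal culture and in OGD over normal culture in control cells. Rbm8a2 was highest, from 44 reads in knockdown cells and 8 in control cells. Rbm7 (0.93), Rbm38 (0.92) and Rbm15 (0.89) followed, each lowest in the control library in normal culture. Rbm7 had 43.2 CPM in knockdown cells and 22.3 CPM in control cells there, 1.93-fold higher (1.72 to 2.17). Rbm15b had 31.4 CPM in knockdown cells and 62.2 CPM in control cells in normal culture, and 44.6 and 75.8 CPM under OGD. It was the 1 member of 60 at least 1.5-fold lower in both cultures, where 2.57% of all genes were (0 members were higher in both, where 3.1% were). That call was lost with some alternatives: total counts gave 0 members lower and 1 higher in both cultures, and FPKM 0 lower and 3 higher. The deposited size factors still gave 1 lower and 0 higher. TMM factors computed without the genes high in control cells in normal culture gave 1 lower and 1 higher. In normal culture alone Rbm15b passed the 2-fold rule with total counts. Its span overlaps Manf on the same strand and Dcaf1 on the other. Rbm4b, adjacent to its near copy Rbm4, had -0.87 in normal culture against 0.54 for Rbm4, and reads may be split between the copies.

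Under OGD Rbm43 was highest, at 14.1 CPM in knockdown cells and 4.81 CPM in control cells, 2.94-fold (2.27 to 3.85). Rbm12b1 was lowest, at 1.69 CPM in knockdown cells and 5.53 CPM in control cells, 3.28-fold lower (2.17 to 5.06), from 33 and 85 reads. Rbm18 at 0.73 and Rbm7 at 0.58 were next on the higher side, and Rbm12b2 and Rbm12 at -0.84 and -0.81 on the lower. Between the cultures 27 of 60 members had the same direction of the knockdown ratio, where 49.7% of all genes did. Of those 60, 0 passed the 2-fold rule in the same direction in both cultures, where 0.915% of all genes were higher and 0.727% lower.

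**Figure D4:**
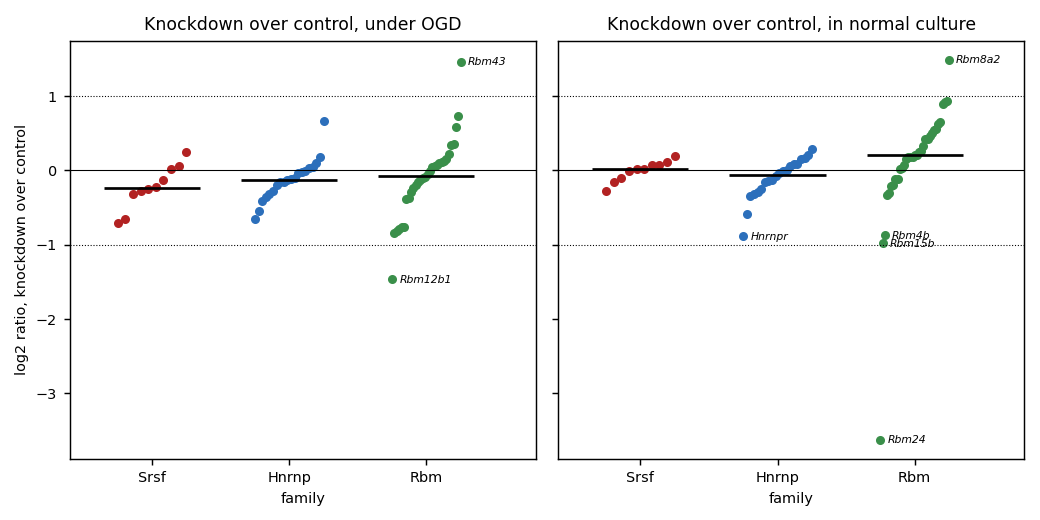
Points are the log2 ratios of knockdown over control for each gene past the floor, under OGD (left, 60 genes) and in normal culture (right, 63 genes), with bars at the family medians and dotted lines at 2-fold. Srsf and Hnrnp genes lie within 2-fold in both cultures, and the 4 genes beyond it are Rbm43, Rbm12b1, Rbm8a2 and Rbm24.

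The pathway lists were also set against the Neat1 lentivirus. In normal culture 1 SR-related gene of 20, Scaf4 (-1.13), and 1 hnRNP-type regulator of 26, Khdrbs3 (-1.36), were at least 2-fold lower, where 16.3% of all genes were. Under OGD Khdrbs3 (2.33) was at least 2-fold higher, where 10.1% of all genes were. No other listed gene passed the rule in either culture. The spliceosome core had medians of 0.10 in normal culture and -0.24 under OGD, and the other lists lay between -0.041 and 0.071 and between -0.20 and 0.047.

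Of the 69 annotated genes that fit the rule, Rbm31y, Rbm44 and Rbm46 had no row. Srsf12, Rbm11 and Rbm20 had rows but stayed below the floor, with at most 6 reads in a library. In all 63 members passed the floor in at least 1 comparison and 60 in all 4. Rbm47 and Rbm41, with at most 25 and 38 reads in a library, were the lowest of the others beside Rbm8a2 and Rbm24. GENCODE annotates a transcript subject to nonsense-mediated decay for 9 of the 10 SR genes, 10 of 20 hnRNP genes and 11 Rbm genes past the floor. In knockdown cells the OGD medians with and without one were -0.078 and -0.19 for hnRNP genes and 0.30 and -0.36 for Rbm genes, in control cells -0.17 and -0.25, and 0.47 and -0.12. Reads were counted per gene, so such transcripts were not measured apart.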

How the data were processed

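RNA sequencing was done on 4 libraries of HT22 cells. TopHat2 and the mm10 build are named in the submitters' processing notes; version, counting program, annotation and strand use are not stated there or in the labels. The authors deposited 4 tables, each of which compares a pair of libraries and holds, per the file headers, read counts scaled by a size factor (a signal), their fold ratio, its log2, and a p-value and adjusted p-value, which were not used. The numbered columns the authors deposited, of unnamed unit, were read as FPKM from their values.

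Whole reads were recovered from the scaled counts (100% whole within 1e-06 of a read). TMM factors (0.893 to 1.05) came from edgeR 4.0.16 (R 4.3.3). Ratios and intervals used scipy 1.17.1, pandas 2.3.3 and numpy 2.4.6 under Python 3.11.15; matplotlib 3.10.9 drew the plots. Adding 0.5 CPM understates ratios of low genes; folds omit it. Bounds against 0 reads use 3 reads. Of 20089 genes, 19912 matched GENCODE mouse release 21 (GRCm38). No count test was run, each group being 1 library; an additive fit of virus and culture, with their interaction as its only error, was left out. Members, the 5 lists and the naming rule (per comparison, members past 2-fold and the 3 highest and lowest per family, with the 2 highest and lowest of each list) were chosen with earlier results of these data known; others are named as close relatives, neighbours or by level. A listed gene that the rule names is not reported here. Alternatives were other scalings, added CPM of 0.1 or 2, floors of 100 or none, and FPKM.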

Additional observations from a re-analysis of the deposited data

Results flagged for a closer look

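Rbm12 differed between the cultures in the direction of its knockdown ratio. It was higher with the Neat1 lentivirus in normal culture (0.63, from 473 reads in knockdown cells and 276 in control cells) and lower with it under OGD (-0.81, from 90 and 130 reads), at least 1.5-fold each way with 1 library per group. The difference itself was not tested. Rbm12 was the 1 member of 60 with such a pattern, where 1091 of 12788 genes had it.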

How the results depend on the processing

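Of 160 recomputed family medians and member counts 144 stayed within their limits (a median within the 95% binomial interval over the family's genes, a count within 1.5 times) and 16 moved. The limits of a median are wide. For SR genes, OGD over normal culture, they were -1.20 to 0.82 in knockdown cells and -0.74 to 0.46 in control cells. A median could thus change sign and still count as within its limits. Of 462 recomputed values of single members 380 stayed within their limits and 82 moved. No member past 2-fold changed sign, but a shift in scaling such as 0.195 or -0.23 could not turn one. Below 2-fold, signs did change with scaling. With total counts, knockdown over control under OGD went from -0.11 to 0.086 for Hnrnpr and from -0.10 to 0.098 for Rbm3. For knockdown in normal culture the 1 member at least 2-fold higher became 0 with 2 CPM added and 0 with a floor of 100, and the 1 lower became 2 with total counts, 3 with FPKM and 2 with TMM factors computed without the 1642 genes high in control cells in normal culture (an alternative chosen after seeing the data). For knockdown under OGD the 1 lower became 0 with a floor of 100, 3 with no floor and 2 with FPKM, and the 1 higher became 2 with no floor. There the hnRNP and Rbm medians were 0.078 and 0.13 with total counts and 0.16 and 0.17 with FPKM, positive where TMM gave -0.12 and -0.071. The all-gene median was 0.183 with total counts, 0.196 with FPKM and -0.012 with TMM, so both family medians lay below it each time. For OGD in control cells the 5 higher became 2 with total counts and 2 with FPKM, and the 3 lower became 5 with total counts. Total counts shifted the all-gene median by 0.195 for knockdown under OGD and by -0.23 for OGD in control cells. Of all genes past 2-fold for knockdown under OGD, 69.5% were higher with TMM and 80.7% with total counts. No paired analysis was possible because the groups compared share only 1 replicate number and these results come from no test. A fit of culture with virus as a block over all 4 libraries was not run, and leaving out a library would empty its group. Rbm15b, 1.5-fold lower with the Neat1 lentivirus in both cultures with TMM, was not so with total counts or FPKM. Depth limits the members with few reads (Rbm24, Rbm41, Rbm47, Rbm8a2, Rbm12b1 and Rbm12b2).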
